A study of Trichoderma reesei with 6 samples.

Results

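In the cellulase-producing fungus *Trichoderma reesei*, 111 of 9113 genes form the set described here. Their transcripts were at most 0.5 times as abundant without *gul1* as with it. The study's supplementary list gives them no carbohydrate-active enzyme (CAZy) family. They were chosen from the deposited FPKM (numbers of fragments divided by the length of the gene and by the size of the library, which makes levels comparable between genes of different length). A gene entered when its mean was at least 5 FPKM in the reference strain QPP, when the ratio of the Δ*gul1* mean to the QPP mean was at most 0.5, and when every Δ*gul1* library lay below every QPP library. Of the 7237 genes at 5 FPKM or more in QPP, 147 (2.03%) met these conditions. From them, 32 genes with a CAZy family in that list, 3 predicted glycosylphosphatidylinositol-anchored proteins and *gul1* itself were left out. The wording of the study's annotation (transporters, permeases and oxidoreductases) was a further ground for exclusion, which removed no gene beyond those. It could act on annotated genes only, and just 4 of the 111 are annotated, so such genes may remain in the set. Because the strain difference chose these genes, their ratios are given as a description, and no test of that difference is attached to them.

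Both strains descend from QP4, a uridine auxotroph obtained from QM9414 by deletion of *pyr4*, and both carry the marker *pyrG*, which in Δ*gul1* replaces part of the *gul1* locus and in QPP sits at a random place. Δ*gul1* lacks the major part of *gul1* and is a single chosen transformant, so that the deletion cannot be told apart from other changes carried by that transformant. Per strain, 3 cultures were pregrown for 36 hr on 2% glucose and then kept for 48 hr on 1% cellulose at 30 °C and 200 rpm. RNA was sequenced from whole mycelium, in which less transcript per hypha and fewer hyphae that express a gene cannot be told apart.

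GUL1 is the filamentous fungal relative of Ssd1, a protein of *Saccharomyces cerevisiae* that binds messenger RNAs, many of them for cell wall proteins, and controls their translation. Ssd1 is itself under the control of the kinase Cbk1, called COT-1 in *Neurospora crassa*, and loss of Ssd1 or of its relatives weakens the cell wall. The wall of a filamentous fungus holds glucan, chitin and mannosylated proteins, and it is built and remodeled at the hyphal tips, where most protein secretion also takes place.

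Only 5 of the 111 genes carry an annotation or a gene name in the study's list or the deposited data. Product names from the assembly were not used here. TRIREDRAFT_123992 is annotated as an expansin, TRIREDRAFT_104277 as a cell wall protein, TRIREDRAFT_69868 as a glycosyltransferase of family 15 and TRIREDRAFT_102735 as a protein with a WSC domain. The gene *fdh1* is named by its symbol alone, and it stayed in the set because the exclusion of oxidoreductases reads annotations and *fdh1* has none. The remaining 106 genes have neither, and they are described by their levels, their spread and their place in the genome.

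The libraries held 17654286 to 21659230 fragments, as recovered from the steps in the FPKM values, and 8821 to 8871 genes were above 0 in each. Transcripts of *gul1* averaged 83.1 ± 3.53 FPKM (SD, n = 3) in QPP and 0.769 ± 0.2003 FPKM in Δ*gul1*, as the strain labels state. Over the genes at 5 FPKM or more in QPP, the median log2 ratio of Δ*gul1* to QPP was 0.15 in the FPKM as deposited and −0.01 after division by size factors, which lay between 0.930 and 1.07. All ratios below are those of the FPKM as deposited unless stated otherwise, and the same scaling moves the median log2 ratio of the 111 genes from −1.48 to −1.64.

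In QPP the means of the 111 genes ran from 5.004 to 2067 FPKM, with a median of 29.5 FPKM. In Δ*gul1* they ran from 0.597 to 911 FPKM, with a median of 9.87 FPKM. The ratio of the means lay between 0.0968 and 0.499, with a median of 0.357 and quartiles of 0.272 and 0.418. Most genes of the set were of modest abundance. In numbers, 21 had a QPP mean of 5 to 10 FPKM, 48 of 10 to 50, 15 of 50 to 100 and 24 of 100 to 500, and only 3 exceeded 500 FPKM. The median ratio within these classes of abundance was 0.311, 0.359, 0.364, 0.360 and 0.441, in the same order. The genes at 5 FPKM or more in QPP had a median QPP level of 40.7 FPKM and a median ratio of 1.11. The 32 CAZy genes that met the same conditions had a median ratio of 0.344 and a median QPP level of 211 FPKM.

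**Figure D1:**
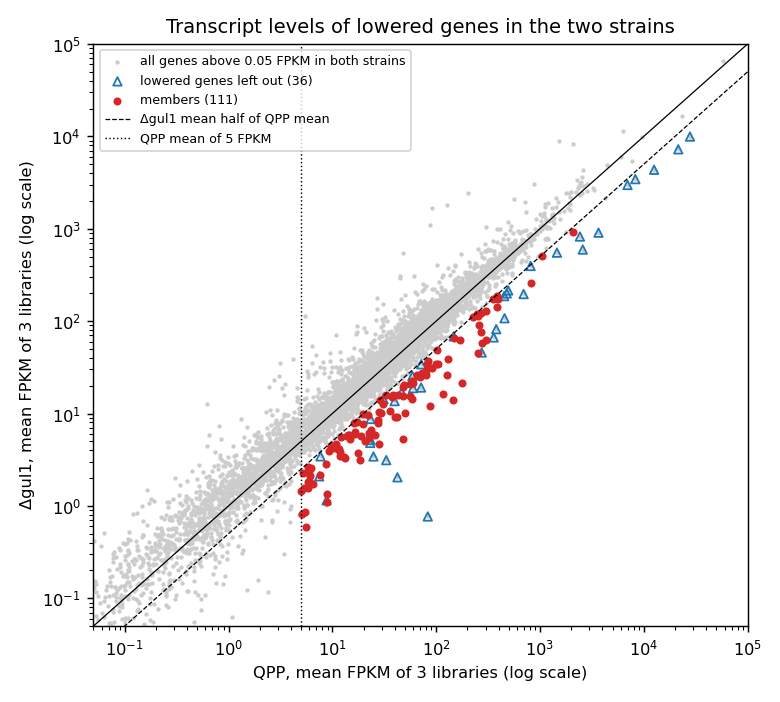
Mean FPKM of 3 libraries in QPP (horizontal, log scale) and in Δ*gul1* (vertical, log scale) for all genes above a small minimum in both strains (grey), the 111 genes of the set (red circles) and the 36 lowered genes left out (blue triangles), with lines for equal means, for a ratio of 0.5 and for a QPP mean of 5 FPKM. The red circles lie between 5.004 and 2067 FPKM in QPP and below the ratio line, with a median ratio of 0.357. The most abundant lowered genes are among those left out.

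Summed over the 111 genes, the FPKM were 11154, 11957 and 12337 in the QPP libraries and 4720, 4109 and 4514 in the Δ*gul1* libraries. This corresponds to 1.36 ± 0.0437% (SD, n = 3) of all FPKM in QPP and to 0.493 ± 0.0192% in Δ*gul1*. The 3 most abundant genes alone held 33.3% of the summed level in QPP and 37.8% in Δ*gul1*. In each library the median gene of the set stood at a similar distance from its QPP mean, at 95.8, 102 and 103% in the QPP libraries and at 36.1, 34.7 and 35.4% in the Δ*gul1* libraries. The sums and medians of the strains do not overlap, as the rule requires of each gene.

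Separation of the libraries was part of the choice, and 937 of the 7237 genes at 5 FPKM or more in QPP (12.9%) had every Δ*gul1* library below every QPP library. How wide that separation was differed between the 111 genes. The lowest QPP library exceeded the highest Δ*gul1* library by a factor of 1.2003 (TRIREDRAFT_54962) to 7.65 (TRIREDRAFT_104227), with a median of 2.27, and by more than 2 in 72 genes. In a limma fit over 9006 genes after scaling, 188 genes (2.09%) were lower in Δ*gul1* at a log2 fold change under −1 and an unadjusted *p* under 0.05. These 188 include all 111 genes, with log2 fold changes from −3.41 to −1.04 and a median of −1.52. Since the same libraries chose them, nothing is read from this count.

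Among the annotated genes, the cell wall protein gene TRIREDRAFT_104277 had the lowest ratio, 0.166. Its level was 21.9, 26.4 and 36.2 FPKM in the QPP libraries and 5.23, 4.29 and 4.51 FPKM in the Δ*gul1* libraries. The means were 28.2 ± 7.31 and 4.68 ± 0.490 FPKM (SD, n = 3), and the lowest QPP library was well above the highest Δ*gul1* library. The annotation does not say what this protein does in the wall, and a second gene with the same annotation, TRIREDRAFT_105869, was too low in QPP to enter the set, at 2.10 ± 0.173 FPKM against 1.01 ± 0.296 FPKM in Δ*gul1*.

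TRIREDRAFT_69868 belongs to glycosyltransferase family 15, whose members in *S. cerevisiae* add mannose to the sugar chains of secreted and wall proteins in the Golgi. It was at 19.9, 15.5 and 26.8 FPKM in QPP and at 5.59, 5.17 and 4.27 FPKM in Δ*gul1*. The means of 20.7 ± 5.67 and 5.01 ± 0.673 FPKM give a ratio of 0.242, and the spread was wider among the QPP libraries than among the Δ*gul1* libraries. TRIREDRAFT_102735 has a carboxy-terminal WSC domain, a cysteine-rich domain that is also found in the Wsc sensors of cell wall stress in *S. cerevisiae*. It was at 12.9, 10.5 and 10.9 FPKM in QPP and at 4.47, 4.02 and 3.92 FPKM in Δ*gul1*. The means were 11.4 ± 1.28 and 4.14 ± 0.292 FPKM, a ratio of 0.362.

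TRIREDRAFT_123992, the expansin gene, was the most abundant of the 111. Expansin-like proteins of fungi loosen the packing of cellulose without cutting its chains. Its level was 2029, 2182 and 1988 FPKM in QPP and 942, 850 and 942 FPKM in Δ*gul1*. The means of 2067 ± 102 and 911 ± 52.8 FPKM differ by a ratio of 0.441, and the gene ranked 34 of all genes in QPP. The gene *fdh1*, whose namesake in *S. cerevisiae* encodes a formate dehydrogenase, was at 307, 394 and 445 FPKM in QPP and at 187, 166 and 213 FPKM in Δ*gul1*. With means of 382 ± 69.5 and 189 ± 23.2 FPKM, its ratio of 0.494 is close to the limit of the rule.

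The 4 annotated genes of the set stand in a list of 18 genes that the study annotated without giving a CAZy family. Anchored proteins and annotations worded as transporters or oxidoreductases were left out of it. Glycosyltransferases and a catalase, TRIREDRAFT_106245, stayed in, since the choice reads only these entries and words. The study chose these genes on the same libraries, so that their directions are not independent of the contrast. In the limma fit, 6 of the 18 were lower, 8 were higher and 4 did not pass the thresholds, with a median log2 fold change of 0.96 against 0.01 over all genes tested, of which 1.87% were higher. These 4 missed the limit on fold change alone, at log2 fold changes of −0.73, 0.82, 0.95 and 0.98. The pseudocount makes such values smaller in genes of low level. The lower ones outside the set were *cip1*, a gene induced by cellulose, and TRIREDRAFT_108357, annotated as the conidiation regulator brlA. Other genes for glycosylation on the list were higher, unlike TRIREDRAFT_69868. Genes for glycosylation outside the list were not examined. The adjusted *p* of a listed gene is no independent test, since the same libraries chose it. TRIREDRAFT_30250, an N-acetylglucosaminyltransferase, went from 28.5 ± 1.86 to 68.4 ± 5.87 FPKM (limma log2 fold change 1.08 with SE 0.0761 and Benjamini-Hochberg adjusted *p* = 6.26e-05). TRIREDRAFT_4027, a glycosyltransferase of family 25, went from 7.28 ± 0.156 to 18.3 ± 0.426 FPKM (limma log2 fold change 1.07 with SE 0.0778 and Benjamini-Hochberg adjusted *p* = 7.20e-05). Both had every Δ*gul1* library above every QPP library. The share of all genes separated in this direction was not counted, so nothing is read from that separation.

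Markers of development and of the hyphal surface, all from the same list, also differed between the strains. The brlA gene TRIREDRAFT_108357 was at 1149 ± 98.8 FPKM in QPP against 615 ± 35.5 FPKM in Δ*gul1*, a ratio of 0.535. The wetA gene TRIREDRAFT_4430, which acts late in conidiation in *Aspergillus*, was at 7.47 ± 1.504 and 17.0 ± 2.65 FPKM, a ratio of 2.27. Their limma log2 fold changes were −1.06 and 0.95, just past and just short of the threshold. The wall protein gene TRIREDRAFT_122127 (PhiA) was at 884 ± 143 and 3063 ± 314 FPKM. The genes *hfb1* and TRIREDRAFT_106538 of hydrophobins, small proteins that coat hyphae and spores, were at 3.17 ± 2.32 and 204 ± 66.9 FPKM in QPP and at 34.8 ± 29.2 and 2460 ± 331 FPKM in Δ*gul1*. All 5 markers were above 0 in every library, and the part of a different stage of development in the levels of the 111 genes was not tested.

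The lowest ratio of the set belonged to TRIREDRAFT_104423, an unannotated gene of 572 bases that lies beside *ace1*, the gene of a repressor of cellulase transcription. Its level was 141, 110 and 184 FPKM in QPP and 13.4, 12.96 and 15.7 FPKM in Δ*gul1*, a ratio of 0.0968. TRIREDRAFT_104227, a gene of 447 bases, had the widest separation of all: 167, 168 and 199 FPKM in QPP against 21.4, 21.8 and 20.3 FPKM in Δ*gul1*. In both genes the Δ*gul1* libraries were closely alike, and the spread lay in QPP.

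TRIREDRAFT_108145 was at 43.0, 48.4 and 53.5 FPKM in QPP and at 5.83, 4.45 and 5.71 FPKM in Δ*gul1*. TRIREDRAFT_103103 was at 73.0, 89.9 and 101 FPKM in QPP and at 12.7, 10.1 and 13.3 FPKM in Δ*gul1*. TRIREDRAFT_112567 was at 120, 131 and 101 FPKM in QPP and at 17.3, 13.4 and 18.1 FPKM in Δ*gul1*. These 3 genes share ratios of 0.110 to 0.138, and each lies directly beside another gene of the set.

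The other genes with a ratio among the 10 lowest were near the minimum of 5 FPKM in QPP. TRIREDRAFT_109081 had means of 5.63 ± 1.37 and 0.597 ± 0.197 FPKM, TRIREDRAFT_5369 of 5.16 ± 0.770 and 0.809 ± 0.271 FPKM and TRIREDRAFT_69555 of 5.43 ± 1.12 and 0.861 ± 0.532 FPKM. TRIREDRAFT_110267 was steadier, with 9.43, 8.345 and 8.70 FPKM in QPP and 1.44, 1.12 and 1.505 FPKM in Δ*gul1*. TRIREDRAFT_106314 was the least steady, with 7.004, 14.9 and 4.70 FPKM in QPP and 0.758, 1.94 and 0.60 FPKM in Δ*gul1*. Its second replicate was the highest in both strains, and the highest Δ*gul1* library still lay below the lowest QPP library.

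**Figure D2:**
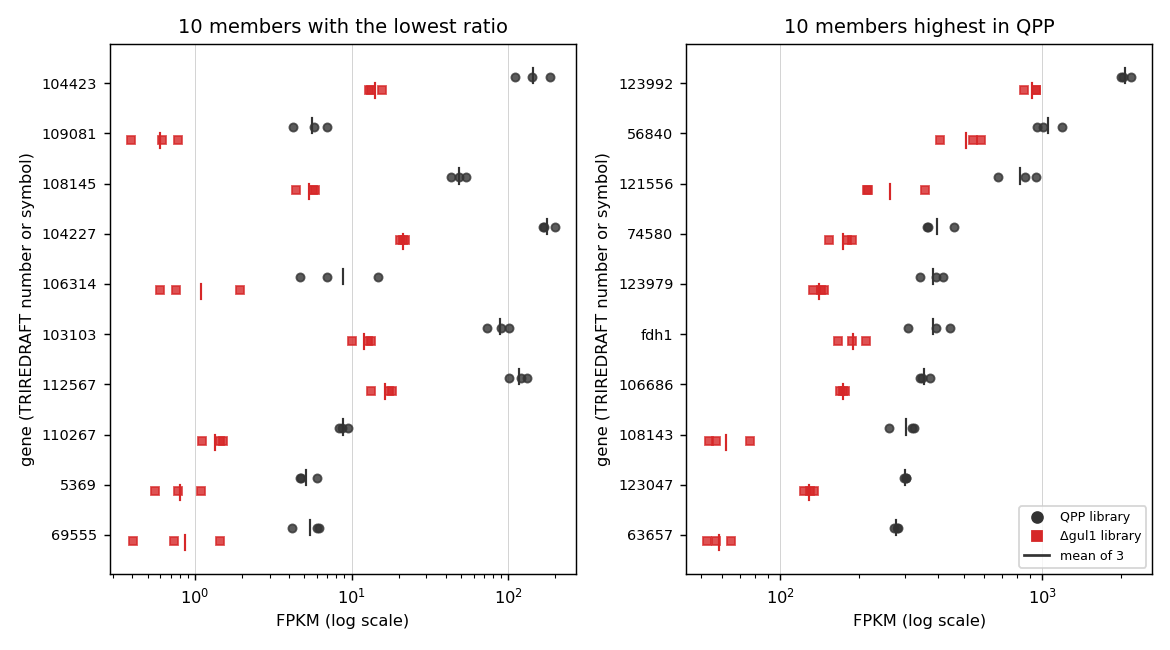
FPKM (horizontal, log scale) of each QPP library (dark circles) and each Δ*gul1* library (red squares), with a bar at the mean of 3, for the 10 genes with the lowest ratio (left) and the 10 genes highest in QPP (right). The strains are separated in every gene, by a factor of 7.65 in TRIREDRAFT_104227, and they come closest among the abundant genes such as *fdh1*.

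Behind the expansin gene, 2 unannotated genes exceeded 500 FPKM in QPP. TRIREDRAFT_56840 was at 954, 1001 and 1185 FPKM in QPP and at 583, 405 and 542 FPKM in Δ*gul1*, a ratio of 0.487. TRIREDRAFT_121556, a gene of 614 bases, was at 677, 856 and 941 FPKM in QPP and at 355, 215 and 215 FPKM in Δ*gul1*, a ratio of 0.318. In the latter the first Δ*gul1* library stood apart from the other two, at a level that was still below all QPP libraries.

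Of the remaining genes among the 10 highest in QPP, 2 had far lower ratios than the rest. TRIREDRAFT_108143 was at 261, 318 and 324 FPKM in QPP and at 53.5, 56.8 and 76.2 FPKM in Δ*gul1*, a ratio of 0.207. TRIREDRAFT_63657 was at 271, 278 and 282 FPKM in QPP and at 64.8, 52.6 and 57.0 FPKM in Δ*gul1*, a ratio of 0.210. TRIREDRAFT_123979 had means of 384 ± 37.7 and 141 ± 6.89 FPKM, a ratio of 0.367. The ratios of TRIREDRAFT_123047, TRIREDRAFT_74580 and TRIREDRAFT_106686 were 0.431, 0.437 and 0.489, at QPP means of 299.8 ± 3.89, 397 ± 55.9 and 353 ± 16.9 FPKM.

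The cultures of a strain differed from each other to varying degrees. The median coefficient of variation of the set over the 3 cultures was 12.8% in QPP and 11.7% in Δ*gul1*, against 6.32% and 7.13% for all genes at 5 FPKM or more in QPP. The highest QPP library exceeded the lowest by the largest factors in TRIREDRAFT_106314, TRIREDRAFT_80659, TRIREDRAFT_39587, TRIREDRAFT_123234 and TRIREDRAFT_76682. TRIREDRAFT_80659 was at 32.6, 21.5 and 65.3 FPKM in QPP and at 8.86, 8.92 and 9.84 FPKM in Δ*gul1*, with the third QPP culture above the other two. TRIREDRAFT_39587 was at 3.78, 8.68 and 3.69 FPKM in QPP and at 2.07, 1.775 and 0.856 FPKM in Δ*gul1*, with the second QPP culture highest. TRIREDRAFT_76682 was at 37.7, 19.4 and 31.5 FPKM in QPP and at 8.065, 15.5 and 6.54 FPKM in Δ*gul1*, and here the second culture was the lowest in QPP and the highest in Δ*gul1*.

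After scaling by size factors, the third QPP library was the highest of its strain in 54 of the 111 genes (48.6%), against 34.7% of all genes at 5 FPKM or more. The first Δ*gul1* library was the highest of its strain in 59 (53.2%), against 36.1% of all such genes, and the second Δ*gul1* library was the lowest in 52 (46.8%), against 34.8%. Over all such genes the first QPP library was the most often highest of its strain, in 40.2%. With each library left out in turn, 91 of the 111 genes were chosen every time.

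**Figure D3:**
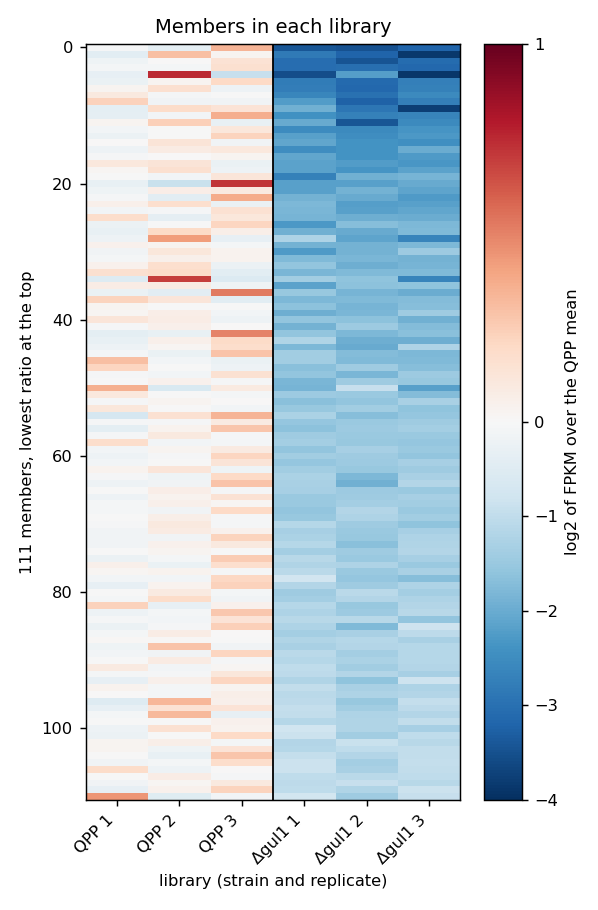
The 111 genes (rows, lowest ratio at the top) in the 6 libraries (columns), colored by the log2 of the FPKM over the gene's QPP mean, blue for lower and red for higher. All Δ*gul1* columns are blue throughout, with medians of 34.7 to 36.1% of the QPP mean, while a few genes such as TRIREDRAFT_106314 and TRIREDRAFT_80659 have 1 dark red QPP library.

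At the limits of the rule the values run on without a gap. Just inside the ratio limit lay TRIREDRAFT_54962 at 0.4995, *fdh1* at 0.494 and TRIREDRAFT_102776 at 0.493. Just outside it lay TRIREDRAFT_22210 at 0.5001, TRIREDRAFT_75165 at 0.501 and TRIREDRAFT_108783 at 0.502. At the minimum of 5 FPKM in QPP, TRIREDRAFT_103060 (5.004 FPKM), TRIREDRAFT_5369 (5.16 FPKM) and TRIREDRAFT_103059 (5.21 FPKM) were just inside, and TRIREDRAFT_69563 (4.97 FPKM), TRIREDRAFT_2036 (4.79 FPKM) and TRIREDRAFT_68972 (3.997 FPKM) just outside.

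Position in the genome was not used by the rule. On the QM6a assembly, 29 of the 111 genes (26.1%) lay directly beside another gene of the set, whereas 2.07% of the 8998 other placed genes lay beside a gene of the set. Lowered CAZy genes and lowered genes of predicted anchored proteins were then counted as neighbors too. In that count, 34 of the 111 genes (30.6%) had a lowered gene directly beside them, against 2.71% of the others. With up to 1 other gene allowed in between, 35 genes (31.5%) had a partner in the set, against 4.06%. The 13 genes with a ratio under 0.2 included 5 of the 29, and the 25 genes with a ratio from 0.2 to 0.3 included 9. The 36 genes from 0.3 to 0.4 included 7, and the 37 genes from 0.4 to 0.5 included 8.

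These 34 genes formed 17 runs, of which 14 had 2 lowered genes, 2 had 3 and 1 had 4, and 13 runs consisted of genes of the set alone. Within those 13 runs, 315 to 2848 bases lay between neighbors, with a median of 1074. A ratio of at most 0.5 in each gene is part of the definition of a run, whereas the level is not. The highest QPP mean in a run was 1.04 to 46.8 times the lowest, with a median of 3.20. The widest difference in level was between TRIREDRAFT_60144 (7.54 ± 1.68 FPKM in QPP) and TRIREDRAFT_106686 (353 ± 16.9 FPKM). The first gene beyond a run was measured at 5 FPKM or more in 12 of 26 places. Those 12 genes had a median ratio of 0.997, and 6 of them were above 1. The median over all genes at 5 FPKM or more in QPP was higher, at 1.11. The 12 ratios ran from 0.502 (TRIREDRAFT_108783) to 1.75 (TRIREDRAFT_122242). The lower end of this range follows from the rule, since a gene at 5 FPKM or more with a ratio of at most 0.5 and separate libraries would have been part of the run. Genes under 5 FPKM are not counted here, among them TRIREDRAFT_112564 with a ratio of 0.320 at 3.44 FPKM in QPP. Whether neighbors in a run are near-identical copies that share fragments was not tested.

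The run of 4 genes comprised TRIREDRAFT_66751, TRIREDRAFT_110265, TRIREDRAFT_123260 and TRIREDRAFT_110267, from position 463554 to 474398 of their scaffold, with ratios of 0.293, 0.424, 0.370 and 0.153. TRIREDRAFT_66751 was at 29.9, 27.0 and 52.0 FPKM in QPP and at 12.7, 10.04 and 9.18 FPKM in Δ*gul1*. TRIREDRAFT_123260 was at 40.7, 38.1 and 48.8 FPKM in QPP and at 17.5, 12.2 and 17.5 FPKM in Δ*gul1*. The remaining pair was lower, with QPP means of 9.25 ± 1.53 FPKM (TRIREDRAFT_110265) and 8.82 ± 0.553 FPKM (TRIREDRAFT_110267). The next gene, TRIREDRAFT_66758, had a ratio of 0.233 as well, at 3.94 FPKM in QPP, under the minimum of the rule.

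A run of 3 genes held TRIREDRAFT_108143, TRIREDRAFT_108144 and TRIREDRAFT_108145, from position 346066 to 354425. Their ratios were 0.207, 0.281 and 0.110. The middle gene was the least abundant, at 21.2, 25.5 and 24.1 FPKM in QPP and at 4.93, 6.403 and 8.58 FPKM in Δ*gul1*. The genes on either side of the run, TRIREDRAFT_122240 and TRIREDRAFT_122242, had ratios of 1.33 and 1.75, both with a higher mean in Δ*gul1* than in QPP.

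Among the pairs, TRIREDRAFT_104422 and TRIREDRAFT_104423 had ratios of 0.370 and 0.0968 at QPP means of 73.7 ± 14.1 and 145 ± 37.2 FPKM, while *ace1* beside them was at 147 ± 7.20 and 159 ± 15.2 FPKM, a ratio of 1.08. TRIREDRAFT_103103 and TRIREDRAFT_119857 had ratios of 0.137 and 0.266, and TRIREDRAFT_103039 and TRIREDRAFT_54461 of 0.203 and 0.350. TRIREDRAFT_56911 and TRIREDRAFT_104081 had ratios of 0.295 and 0.212, and TRIREDRAFT_58717 and TRIREDRAFT_76230 of 0.311 and 0.305. TRIREDRAFT_82619 and TRIREDRAFT_112567 had ratios of 0.476 and 0.138, and TRIREDRAFT_103059 and TRIREDRAFT_103060 of 0.434 and 0.291. The pairs of TRIREDRAFT_102820 with TRIREDRAFT_54962 and of TRIREDRAFT_108781 with TRIREDRAFT_64049 were close to the limit, at 0.417, 0.499, 0.417 and 0.461.

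**Figure D4:**
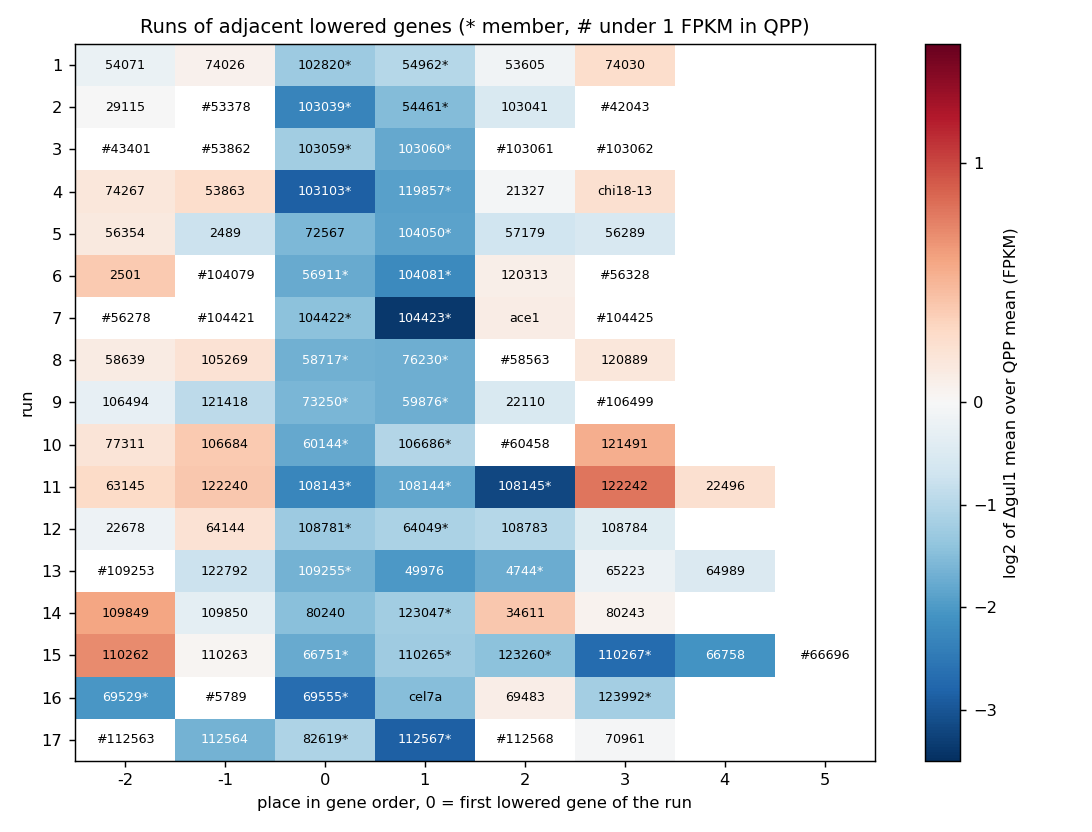
The 17 runs of adjacent lowered genes (rows) with the annotated genes around them in gene order (columns, counted from the first lowered gene of the run), colored by the log2 ratio of the Δ*gul1* mean to the QPP mean; an asterisk marks genes of the set, and genes under 1 FPKM in QPP are left white. The genes around the runs range from lower ones, such as TRIREDRAFT_66758 at 0.233 and TRIREDRAFT_112564 at 0.320, to higher ones, such as TRIREDRAFT_122242 at 1.75, and runs 5, 13, 14 and 16 each include a CAZy gene.

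Some genes of the set lay beside lowered cellulase and hemicellulase genes. There were 5 directly adjacent to a lowered CAZy gene (4.505% of the set, against 0.633% of the other placed genes) and 4 more with 1 gene in between. TRIREDRAFT_109255 and TRIREDRAFT_4744 flanked *cel45a*, an endoglucanase gene, on either side. TRIREDRAFT_109255 was at 41.4, 48.5 and 54.1 FPKM in QPP and at 14.0, 11.9 and 20.2 FPKM in Δ*gul1*. TRIREDRAFT_4744 was at 131, 126 and 128 FPKM in QPP and at 41.7, 35.3 and 39.6 FPKM in Δ*gul1*. Their ratios of 0.320 and 0.302 compare with 0.248 for TRIREDRAFT_49976, which is *cel45a*, at 3662 ± 303 FPKM in QPP.

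Around *cel7a*, the gene of the major cellobiohydrolase, 3 genes of the set lay within a short stretch. TRIREDRAFT_69529 was at 61.0, 66.3 and 49.4 FPKM in QPP and at 17.1, 12.8 and 13.1 FPKM in Δ*gul1*, a ratio of 0.243. TRIREDRAFT_69555, directly beside *cel7a*, had a ratio of 0.158, and the expansin gene TRIREDRAFT_123992 lay on the other side with 1 gene between. The ratio of *cel7a* was 0.357, at 27852 ± 1289 FPKM in QPP against 9953 ± 465 FPKM in Δ*gul1*. The stretch was not lowered throughout: the gene between *cel7a* and the expansin gene, TRIREDRAFT_69483, had a ratio of 1.07 at 2.89 FPKM in QPP, and TRIREDRAFT_5789 had 0.989 at 0.678 FPKM, both under the minimum of the rule.

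The other genes of the set near lowered CAZy genes were TRIREDRAFT_104050 beside *cel6a* (ratios 0.273 and 0.337) and TRIREDRAFT_123047 beside the β-galactosidase gene *bga1* (0.431 and 0.366). With 1 gene between, TRIREDRAFT_123234 lay near *cel12a* (0.357 and 0.346), TRIREDRAFT_123914 near the α-glucuronidase gene *glr1* (0.241 and 0.463) and TRIREDRAFT_54223 near an acetyl xylan esterase gene, TRIREDRAFT_54219 (0.443 and 0.431). TRIREDRAFT_104050 rests on few fragments, 34, 56 and 29 in QPP and 17, 8 and 6 in Δ*gul1*, beside a neighbor at 21497 ± 1229 FPKM in QPP.

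Neighbors of the set that were not lowered genes themselves had ratios below 1 more often than all genes that were not lowered. Of 118 such neighbors at 5 FPKM or more in QPP, 78 (66.1%) had a ratio below 1 after scaling. Among all 7086 placed genes at that level that were not lowered genes, the share was 50.6%. The median log2 ratio was −0.08 for the 118 neighbors and −0.00 for the 7086 genes. The gene TRIREDRAFT_73250 (ratio 0.329) overlaps its neighbor TRIREDRAFT_121418 by 34 bases. This neighbor is the acetyl esterase gene *aes1*, with a ratio of 0.531. TRIREDRAFT_121418 was at 962 FPKM in QPP against 511 FPKM in Δ*gul1*, while TRIREDRAFT_73250 was at 8.67 and 2.85 FPKM. Since the strand setting of the counting is not given in the sources used here, fragments of the overlap cannot be assigned, and the level of TRIREDRAFT_73250 is uncertain.

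The genes of the set spanned 333 to 4632 bases on the assembly, with a median of 1445, against 1544 for all genes at 5 FPKM or more in QPP. The 13 genes with a ratio under 0.2 had a median span of 837 bases, and those in the classes of 0.2 to 0.3, 0.3 to 0.4 and 0.4 to 0.5 had medians of 1504, 1578 and 1440. Over the 111 genes, the lowest Δ*gul1* library held a median of 201 fragments. In 8 genes it held fewer than 30, among them TRIREDRAFT_69555 with 64, 103 and 87 fragments in QPP and 23, 10 and 6 in Δ*gul1*. For such genes counting error is a larger part of the spread between cultures.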

How the data were processed

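The 6 RNA-seq libraries (3 cultures of QPP and 3 of Δ*gul1*) were grouped by their strain labels. The authors trimmed reads (cutadapt), aligned them with HISAT2 to the genome of QM6a, tallied fragments for each gene by HTSeq and deposited the resulting FPKM, 1 column per culture. Versions and the strand setting of counting are not given in the sources used here, so overlapping or near-identical genes may share fragments. The unit is scaled by gene length and a total per library, not between libraries. The authors' supplementary lists gave annotations, CAZy families and predicted anchored proteins only. Their fold changes and *p*-values were not used.

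The set and all lists were chosen with earlier results of these data known. Means, SD and ratios are of FPKM as deposited. The study applied a count model. Because FPKM are not counts, limma 3.58.1 in R 4.3.3 (lmFit, eBayes with a trend) was run on log2 of FPKM divided by median-of-ratios size factors plus a pseudocount of 1, over 9006 genes above 0 in at least 1 library. Such fold changes understate those of low genes. Calls used the study's thresholds (absolute log2 fold change above 1, unadjusted *p* under 0.05). The fit and the rule were tested on simulated data. Fragments were recovered from FPKM steps, within 0.02 of a whole number. All 111 genes gave a length, 106 of them a unique one. The other 5 were given the longest possible length, which makes their fragment numbers upper bounds. Fragment numbers bear on counting error only.

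Gene order came from the assembly's RefSeq gene table, which matched 9109 genes of the table and left 4 unplaced. It names no scaffold, so a new scaffold was taken to begin where positions fall. Genes named are those with an annotation or name, the 10 lowest ratios, the 10 highest QPP means, genes beside another of the set, 3 on each side of both limits, and the 5 with the largest QPP spread. Genes near lowered CAZy genes and TRIREDRAFT_104050, TRIREDRAFT_66758 and TRIREDRAFT_112564 were added after their values were seen. No gene or protein sequence was used here. Python 3.11.15, numpy 2.4.6, pandas 2.3.3 and matplotlib 3.10.9 were used. Alternatives are given in the closing section.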

Additional observations from a re-analysis of the deposited data

How the results depend on the processing

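The number of genes meeting the rule was 111 as reported, 146 after size factors, 152 after upper quartile scaling, 141 with a QPP minimum of 1 FPKM, 90 with 10 FPKM, 74 with a ratio of at most 0.4 and 112 without the condition on single libraries. It was 106 to 121 with each library left out in turn, and 20 genes were lost in at least 1 of these. Their median log2 ratio was −1.48 as reported, −1.53 for the genes chosen after size factors and −1.77 for those at a ratio of at most 0.4. Without the 10 most abundant genes of all, the share of FPKM was 1.72% in QPP and 0.582% in Δ*gul1*. In the limma fit, 188 genes were lower and 168 higher, with FPKM as deposited 150 and 237, and with a pseudocount of 0.1, 260 and 289. Of the 111 genes, 102 passed the thresholds with FPKM as deposited and 109 to 111 with each library left out. Of the 18 annotated genes, 4 to 7 were lower and 6 to 11 higher over the alternatives. Over 13 alternatives for 50 named genes, 643 of 650 fold changes kept their call and all were below 0. The exceptions were TRIREDRAFT_54962, TRIREDRAFT_103059 and TRIREDRAFT_64049, at −0.91, −0.92 and −0.95 with FPKM as deposited, TRIREDRAFT_54962 at −0.81 and −0.88 without QPP replicate 1 or Δ*gul1* replicate 2, and TRIREDRAFT_103059 and TRIREDRAFT_64049 at −0.92 and −0.94 without QPP replicate 2. The cause was not tested. The rule chose all of these genes on the same libraries, so fold changes below 0 were largely fixed in advance. Nothing is read from these counts as support for the strain difference. The labels number the cultures 1 to 3 in both strains, but same-numbered libraries correlated at −0.09, 0.18 and 0.37 in their deviations from the strain means, so they were not treated as pairs. A replicate block gave 188 lower and 169 higher genes, all 111 genes of the set and 6 and 8 of the annotated genes. Planned comparisons of protein similarity, protein composition and promoter motifs were not run, since no sequences were used here. The data cover 3 cultures of 1 transformant per strain and 1 time point. In the sources used here, 106 of 111 genes have neither annotation nor name, so levels and neighborhoods are what is described.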
